A study of Mus musculus with 12 samples.

Results

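The genes of the hypoxia response and of glycolysis were examined in stomachs lacking Car9 and in wild-type stomachs, to see whether loss of one HIF target enzyme went along with a shift of the others. The set was chosen by gene symbol and holds 34 names for 33 genes, since Ero1a and Ero1l are names of the same gene. Car9 itself was left out of the set. The platform table named at least 1 probe for 29 of these genes, 54 probes of 46643 on the array. Of these, 41 probes of 25 genes were detected on enough arrays to be tested, among 20751 tested probes of 11704 named genes in all. Gpi1, Eno1, Ankrd37 and Ero1l had no probe under their names and were not analysed here.

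Total RNA was measured in specimens of the stomach body from 12 mice on the C57BL/6 strain, 6 of them Car9-/- and 6 wild-type. Each mouse had its own Illumina Mouse-6 array. Each genotype had 3 males and 3 females, and ages were 10 to 12 months for Car9-/- and 8 to 12 months for wild-type mice. The knockout is a targeted disruption of Car9 in the whole animal, so every cell type of the stomach lacked the enzyme, and the mice had received no hypoxia or other treatment. All values below are log2 signals after quantile normalization between arrays, and a gene is represented by its tested probe with the highest mean over the 12 mice. A log2 fold change is the mean of Car9-/- mice minus the mean of wild-type mice, with its standard error. A gene was called when its Benjamini-Hochberg adjusted p from limma, taken over all tested probes, was under 0.05. Median signals were 83.3 to 101.4 on Car9-/- arrays and 75.6 to 89.6 on wild-type arrays, and array pairs correlated at 0.935 to 0.991. Car9 averaged 7.96 ± 0.15 in Car9-/- mice and 9.63 ± 0.13 in wild-type mice (SD, n = 6 each), and the ranges did not overlap, although its probes were still detected on every array.

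The hypoxia-inducible factors are pairs of an oxygen-labile alpha subunit (HIF-1alpha from Hif1a, HIF-2alpha from Epas1) and a stable partner. In normal oxygen, prolyl hydroxylases encoded by the Egln genes mark the alpha subunit and the von Hippel-Lindau protein (Vhl) targets it for breakdown. In low oxygen the alpha subunit persists and raises transcription of genes for glucose uptake, glycolysis, lactate production, vessel growth and matrix building. Car9 is among the best known of these targets in tumours, but in the healthy stomach it is made at a high level by the surface and gland epithelium. CA IX hydrates carbon dioxide at the outer face of the membrane and so disposes of the acid that glycolysis and respiration leave.

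HIF binds a short core, ACGTG or GCGTG, in the promoters and enhancers of its targets. In the 250 bases before the most upstream start listed by RefSeq (GRCm38.p6), either core was found on at least one strand in 23 of the 30 genes of the set that had a promoter in the table. Over all 27025 genes with a promoter of the same length, 38.6% held either core, and over the 17492 protein-coding genes 43.9% did. ACGTG, with or without GCGTG, was found in 14 of the 30, against 16.5% of all genes and 17.6% of protein-coding genes. GCGTG, with or without ACGTG, was found in 17 of the 30, against 28.3% of all genes and 33.7% of protein-coding genes. The upstream sequences are given for the only called gene, Eno2, and for Pgk1, Pdk1, Ldha and Hk2, whose means were all higher in Car9-/- mice with an unadjusted p under 0.05. Each reads 5′ to 3′ toward the start of the gene, and capitals mark a core on either strand. On the opposite strand the cores read CACGT and CACGC, and in CACGTG the cores of both strands overlap.
Eno2, chr6:124769674-124769923, minus strand: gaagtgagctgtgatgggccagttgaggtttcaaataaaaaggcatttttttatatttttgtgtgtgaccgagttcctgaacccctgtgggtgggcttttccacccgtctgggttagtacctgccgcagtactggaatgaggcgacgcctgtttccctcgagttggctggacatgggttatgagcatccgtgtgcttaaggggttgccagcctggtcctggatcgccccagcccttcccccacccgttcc
Pgk1, chrX:106186850-106187099, plus strand: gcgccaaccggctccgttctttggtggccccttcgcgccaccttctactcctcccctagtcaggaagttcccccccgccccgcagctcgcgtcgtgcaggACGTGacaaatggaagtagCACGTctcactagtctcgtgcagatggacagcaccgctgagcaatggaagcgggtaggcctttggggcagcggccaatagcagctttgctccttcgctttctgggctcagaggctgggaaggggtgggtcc
Pdk1, chr2:71872974-71873223, plus strand: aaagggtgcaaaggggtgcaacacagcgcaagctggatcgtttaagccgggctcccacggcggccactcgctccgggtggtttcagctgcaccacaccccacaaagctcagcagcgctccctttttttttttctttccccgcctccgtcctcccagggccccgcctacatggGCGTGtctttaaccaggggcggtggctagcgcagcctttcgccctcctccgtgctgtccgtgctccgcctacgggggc
Ldha, chr7:46845554-46845803, plus strand: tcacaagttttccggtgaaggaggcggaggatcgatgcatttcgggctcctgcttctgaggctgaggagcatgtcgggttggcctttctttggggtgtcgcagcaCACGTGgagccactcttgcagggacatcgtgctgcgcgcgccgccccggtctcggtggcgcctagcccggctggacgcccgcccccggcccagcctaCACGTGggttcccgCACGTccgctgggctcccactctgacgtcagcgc
Hk2, chr6:82774455-82774704, minus strand: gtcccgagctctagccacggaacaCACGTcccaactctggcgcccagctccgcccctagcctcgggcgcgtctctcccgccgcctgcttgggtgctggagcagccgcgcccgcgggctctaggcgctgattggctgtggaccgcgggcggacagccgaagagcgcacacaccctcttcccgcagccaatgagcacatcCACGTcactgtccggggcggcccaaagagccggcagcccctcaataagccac
The window of Ldha held 5 core matches, of which 4 lie in the CACGTG overlaps, those of Pgk1 and Hk2 held 2 each and that of Pdk1 held 1. The Eno2 window held no match, which says only that these letters are not in these 250 bases. The windows of P4ha2 and Pfkfb3, whose means were lower in Car9-/- mice with an unadjusted p under 0.05, held 3 and 1. Matches were thus found before genes with higher and with lower means. A match is a run of letters and was not tested for binding.

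Over the set as a whole, 1 gene was downregulated and 0 were upregulated in Car9-/- stomachs, and 24 of the 25 tested genes did not pass. Among all 11704 tested genes 13% passed, 5.91% higher and 7.06% lower in Car9-/- mice, so the hypoxia and glycolysis genes were called no more often than stomach genes at large. At an unadjusted p under 0.05 there were 7 genes, 4 higher (Pdk1, Pgk1, Ldha and Hk2) and 3 lower (Eno2, Pfkfb3 and P4ha2), where the share over all genes was 30.9%. The means were higher in Car9-/- mice for 12 genes and lower for 13, and the median log2 fold change was -0.0025, against -0.0239 over all tested genes. The groups did not overlap for 1 gene of the 25, Pgk1, and over all genes this held for 5.24%. For 16 of the 25 genes the 95% interval of the change lay within 1.4-fold either way, as it did for 68.3% of all genes. Under median scaling in place of quantile normalization, the split moved to 5 higher (Hk2, Tpi1, Pgk1, Ldha and Pdk1) and 0 lower. That scaling shifted the median log2 fold change of all genes by 0.14, to 0.12, and gave 2304 genes higher and 313 lower over all genes, against 692 higher and 826 lower under quantile normalization.

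**Figure D1:**
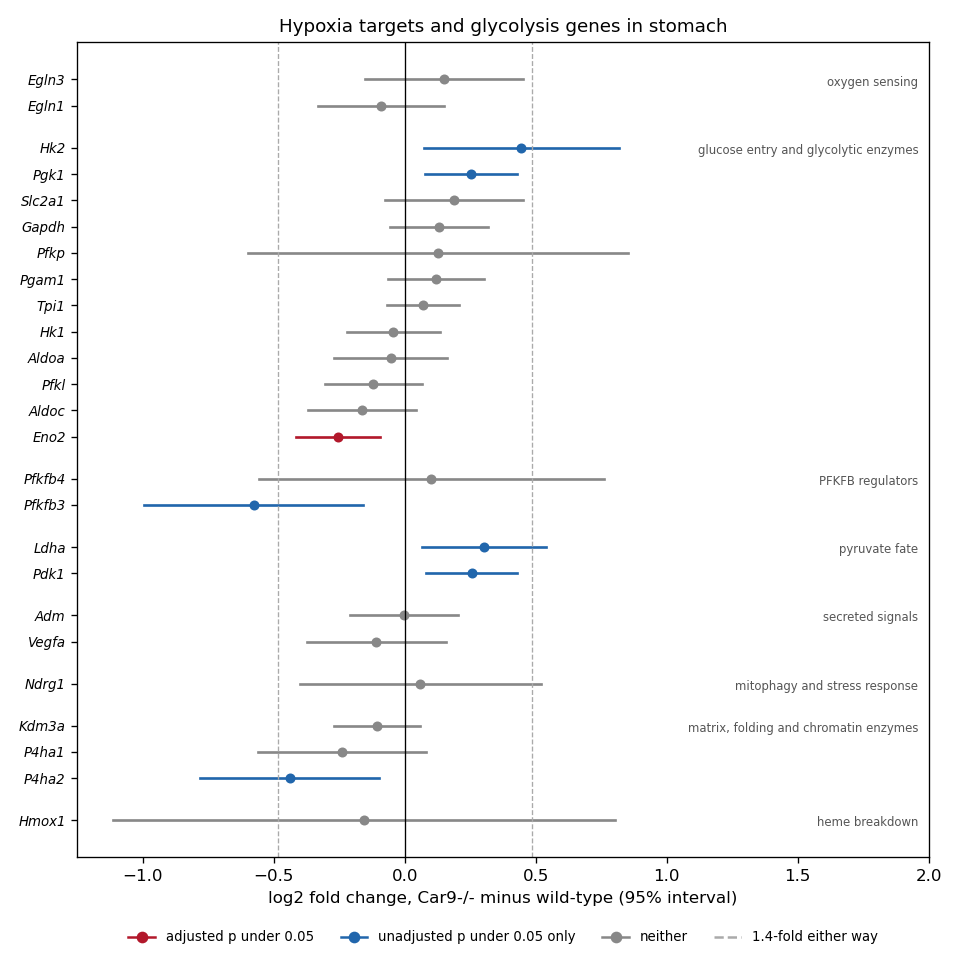
Log2 fold change of each of the 25 tested genes with its 95% interval, Car9-/- minus wild-type, grouped by role, with dashed lines at 1.4-fold (0.485 on the log2 scale). Eno2 alone passed the adjusted threshold (red), 6 further genes had an unadjusted p under 0.05 (blue), and the intervals of Hmox1, Pfkp and Pfkfb4 are wide.

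The alpha subunits themselves could not be followed at these probes. Hif1a had 3 probes and Epas1 had 1, and none reached a detection p under 0.01 on any of the 12 arrays. Their log2 signals lay between 5.90 and 6.34 for Hif1a and between 5.74 and 6.26 for Epas1, where undetected probes lie, and no level was read from them. Vhl was detected on 1 array, a Car9-/- one, and was not tested. Bnip3, a mitochondrial protein that starts mitophagy in hypoxia, was detected on 0 arrays. These 4 genes had probes but no usable signal, which does not show that their transcripts are absent.

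Among the oxygen sensors, neither prolyl hydroxylase gene changed beyond the spread between mice. Egln1, which encodes PHD2, the main hydroxylase acting on HIF-1alpha in normal oxygen, had a lowest, median and highest value of 8.50, 8.97 and 9.12 in Car9-/- mice and 8.83, 8.97 and 9.26 in wild-type mice. Its log2 fold change was -0.09 ± 0.11 (adjusted p = 0.636), and its other tested probes gave -0.10 (adjusted p = 0.42) and -0.04 (adjusted p = 0.765). Egln3, which encodes PHD3 and is itself a strong HIF target, ran from 10.67 to 11.19 with a median of 11.04 in Car9-/- mice and from 10.33 to 11.22 with a median of 10.91 in wild-type mice. Its log2 fold change was 0.15 ± 0.14 (adjusted p = 0.513), with an interval of -0.15 to 0.45, and a weaker probe gave 0.05 (adjusted p = 0.75). The ranges overlapped for both genes, with the lowest Egln1 values in Car9-/- mice and the lowest Egln3 value in a wild-type mouse, and both intervals lay within 1.4-fold.

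Eno2 encodes the gamma subunit of enolase, the form found in neurons and endocrine cells, and it was the only gene of the set to be downregulated. Its values in Car9-/- mice were 7.50, 7.71, 7.67, 7.73, 7.90 and 7.83, against 8.06, 8.07, 7.89, 7.99, 7.83 and 8.03 in wild-type mice. The lowest value was that of Car9-/- mouse 1, and only Car9-/- mouse 5 reached into the wild-type range, above wild-type mice 3 and 5. The log2 fold change was -0.26 ± 0.07 (adjusted p = 0.0444), a difference of less than 1.4-fold. It was -0.40 in males and -0.12 in females, and the sexes did not differ past the threshold with limma (unadjusted p = 0.0645, adjusted p = 0.57). The call was kept under 9 of 27 other settings and lost under 18, with adjusted p values from 0.019 to 0.454 and no change of sign, and leaving out any one of Car9-/- mice 1 to 4, or of wild-type mice 1, 2, 4 and 6, ended it. Markers of enteric neurons and glia were lower in the same comparison. Of that list of 13 genes, 8 were tested, 7 of them detected on all 12 arrays, and 5 fell with 0 rising, where 7.06% of all tested genes fell. The summed level of the list, a mean of centred log2 values, was -0.34 to 0.03 in Car9-/- mice and -0.03 to 0.40 in wild-type mice. The part of these cells in the Eno2 result was not tested, and in RNA of whole tissue fewer cells of a type and less RNA per cell cannot be told apart.

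Among the general glycolytic enzymes, from glucose entry to enolase, most changes were small. Of the 12 tested genes of this group 1, Eno2, was called, 10 had a 95% interval within 1.4-fold, and the median log2 fold change was 0.09. Slc2a1, which encodes the glucose transporter GLUT1, had values of 10.93, 11.10 and 11.45 (lowest, median and highest) in Car9-/- mice and 10.58, 10.98 and 11.30 in wild-type mice. The change was 0.19 ± 0.12 (adjusted p = 0.335), and only wild-type mice 4 and 6 lay below every Car9-/- mouse.

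Pgk1 encodes phosphoglycerate kinase, which makes the first ATP of the pathway, and it was the gene whose groups separated. Its values were 12.12, 12.10, 12.19, 12.26, 12.09 and 12.15 in Car9-/- mice, against 11.59, 11.95, 11.77, 12.05, 12.03 and 12.00 in wild-type mice. All Car9-/- values exceeded all wild-type values, with Car9-/- mouse 5 only just above wild-type mouse 4. The gene's log2 fold change was 0.25 ± 0.08 and did not pass (unadjusted p = 0.00867, adjusted p = 0.0669). It passed under 2 of 27 other settings, median scaling (adjusted p = 0.00603) and sex and age as covariates (adjusted p = 0.0333). Single omissions gave adjusted p values of 0.057 to 0.142. Another Pgk1 probe was detected on no array.

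Hk2, the inducible hexokinase that traps glucose at the start of the pathway and is held low in most normal tissue, had the largest positive change of the set. The 6 values were 11.27, 11.01, 11.07, 11.46, 10.81 and 10.67 in Car9-/- mice and 10.82, 10.86, 10.64, 10.81, 10.57 and 9.91 in wild-type mice. Wild-type mouse 6 was the lowest by a wide gap, and the 2 lowest Car9-/- mice lay inside the wild-type range. The change of 0.45 ± 0.17 did not pass (adjusted p = 0.116), and with sex as a covariate it did (adjusted p = 0.0485). Hk2 passed under 3 of 27 other settings, with adjusted p values of 0.0282 to 0.566. Without wild-type mouse 6 its change was 0.31. Hk2 was also the gene of the set that differed most between the sexes, being lower in females by 0.43 on the log2 scale (unadjusted p = 0.00596). Within each sex its mean was higher in Car9-/- mice, at 10.85 in Car9-/- females against 10.37 in wild-type females, and at 11.25 in Car9-/- males against 10.83 in wild-type males.

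Gapdh, the oxidative step often taken as a reference gene, was measured by 5 probes that all leaned the same way. At the probe with the highest mean, values were 14.56, 14.69 and 15.05 in Car9-/- mice and 14.49, 14.57 and 14.80 in wild-type mice, a change of 0.13 ± 0.09 (adjusted p = 0.347). The other 4 probes gave 0.16, 0.13, 0.17 and 0.19 with adjusted p values of 0.169, 0.417, 0.216 and 0.223. The probes measure the same transcript and are not independent, and none passed.

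The rest of the central enzymes gave small changes of both signs. Aldoa and Aldoc, the muscle-type and brain-type aldolases that split the sugar, had -0.05 and -0.16, and a weaker Aldoc probe gave -0.12. Hk1, the constant hexokinase, had -0.04 at the representing probe and 0.09 and 0.10 at weaker probes. Pfkl, the liver-type phosphofructokinase of the committed step, had -0.12, and Tpi1, triose phosphate isomerase, had 0.07. Pgam1, phosphoglycerate mutase, had 0.12 at a probe detected on only 4 arrays. Adjusted p values of these genes at their representing probes were 0.289 to 0.768. For each of them the values of the 2 genotypes overlapped.

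**Figure D2:**
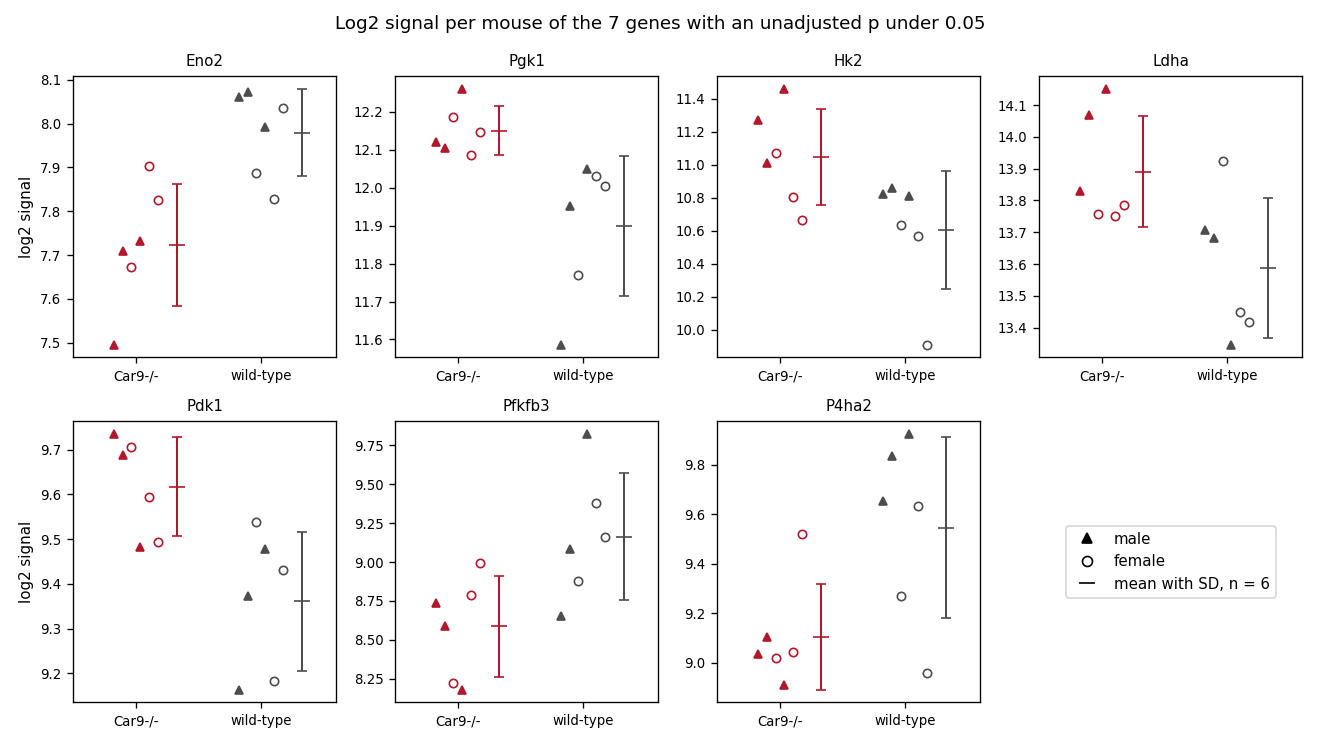
Log2 signal of the 7 genes with an unadjusted p under 0.05, 1 point per mouse, with Car9-/- on the left of each panel and the mean with SD (n = 6) beside the points. Pgk1 is the only panel without overlap, and each axis covers the range of its own gene and does not start at 0.

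Pfkp, the platelet-type phosphofructokinase, was set apart by a single mouse. At its representing probe the Car9-/- mice had 10.26, 10.37, 10.43, 10.21, 8.18 and 10.37, against 9.80, 9.85, 9.99, 9.38, 10.18 and 9.85 in wild-type mice. Car9-/- mouse 5 had the lowest value of all, and the other 5 Car9-/- mice lay above every wild-type mouse. With all 12 mice the change was 0.13 ± 0.34 (adjusted p = 0.839), and without Car9-/- mouse 5 it was 0.48 (adjusted p = 0.0176), so this mouse decided the call. A second tested probe was also low in Car9-/- mouse 5, with 6.46 against 8.29 to 8.58 in the other Car9-/- mice. There Car9-/- mouse 2, at 8.29, lay below wild-type mouse 5, at 8.33. One more probe, detected on 5 arrays, had 6.60 in Car9-/- mouse 5, inside the range of 6.30 to 6.71 of its genotype.

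The low reading of Car9-/- mouse 5 was not limited to Pfkp. The weaker of 2 Tpi1 probes had 6.48 in this mouse and 7.62 to 7.81 in the other Car9-/- mice, and a weaker Hk1 probe had 6.49 in it against 6.91 to 7.16. The representing probes of Tpi1 and Hk1 did not share this, with 13.20 and 12.03 in mouse 5, within the range of the other Car9-/- mice. Its low values therefore belong to some probes of a gene and not to others. Leaving this mouse out raised the share of all genes called to 18.1%, with 1 gene of the set higher (Pfkp) and 1 lower (Eno2).

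**Figure D3:**
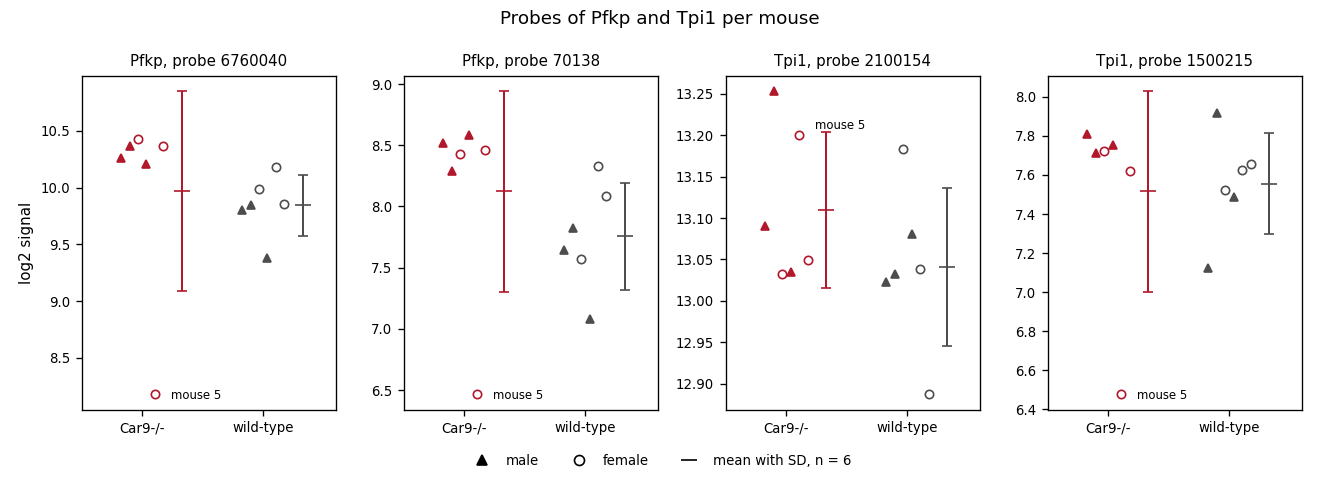
Log2 signal of 2 probes of Pfkp and 2 of Tpi1, 1 point per mouse, Car9-/- on the left, with mean and SD (n = 6). Car9-/- mouse 5 is the lowest point at both Pfkp probes and at Tpi1 probe 1500215, and is at 13.20 at Tpi1 probe 2100154.

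The enzymes at the branch from pyruvate both had higher means in Car9-/- stomachs. Ldha encodes the subunit of lactate dehydrogenase that favours making lactate from pyruvate. Its values were 13.75, 13.81 and 14.15 (lowest, median and highest) in Car9-/- mice and 13.35, 13.56 and 13.92 in wild-type mice, with a change of 0.30 ± 0.11 that did not pass (adjusted p = 0.0943). Wild-type mouse 3 had 13.92 and lay among the Car9-/- mice, and without it the gene passed (0.37, adjusted p = 0.0321). That mouse was picked after the values were seen, and other single omissions gave adjusted p values up to 0.195. Over 27 other settings the Ldha change ran from 0.13 to 0.44 and passed under 3 (adjusted p from 0.0275 to 0.602). Pdk1 encodes a kinase that shuts the pyruvate dehydrogenase complex and so keeps pyruvate out of mitochondria. It had 9.48, 9.64 and 9.74 in Car9-/- mice and 9.16, 9.40 and 9.54 in wild-type mice, a change of 0.26 ± 0.08 (adjusted p = 0.0599), and its other probe gave 0.19 (adjusted p = 0.147). Here too wild-type mouse 3 was the highest wild-type mouse, and without it the adjusted p was 0.0348. Other single omissions gave adjusted p values up to 0.126, and Pdk1 passed under 3 of 27 other settings.

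Pfkfb3 and Pfkfb4 encode bifunctional enzymes that set the level of a fructose bisphosphate that activates phosphofructokinase, and neither passed. Pfkfb3, the form whose kinase activity most outweighs its phosphatase activity, had 8.74, 8.59, 8.23, 8.18, 8.79 and 8.99 in Car9-/- mice, against 8.65, 9.09, 8.88, 9.82, 9.38 and 9.16 in wild-type mice. Its change of -0.58 ± 0.19 was the largest of the set in either direction and the only one past 1.4-fold, which 8.68% of all genes passed, and its adjusted p was 0.0755. Wild-type mice 1 and 3 lay within the range of the Car9-/- mice. Without wild-type mouse 1 the gene passed (-0.68, adjusted p = 0.0473), and that mouse was picked after the values were seen. Other single omissions gave adjusted p values up to 0.161. Pfkfb3 passed under 2 of 27 other settings, and its change ran from -0.68 to -0.30 over all 27. The lowest Pfkfb3 value, in Car9-/- mouse 4, and the highest, in wild-type mouse 4, were also the mice with the lowest and highest parietal cell level, -0.57 and 0.41. The same held for the exocrine pancreas level, at -1.09 and 2.93, and wild-type mouse 4 also had the highest chief cell level, 0.58. Of the 11 parietal cell genes 10 were tested, 9 of them detected on all arrays, and 2 fell and 0 rose, where 7.06% of all tested genes fell. The list level was -0.57 to 0.23 in Car9-/- mice and -0.12 to 0.41 in wild-type mice, and the part of these acid-secreting cells, or of the pancreas and chief cells, in the Pfkfb3 values was not tested.

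Pfkfb4 and Hmox1 varied far more between mice than between genotypes. Pfkfb4, the other bifunctional enzyme, ran from 8.10 to 9.53 with a median of 8.88 in Car9-/- mice and from 8.00 to 9.51 with a median of 8.78 in wild-type mice, with a change of 0.10 ± 0.30 (adjusted p = 0.86). Hmox1, the enzyme that opens the heme ring and responds to oxidative stress as well as to HIF, ran from 8.60 to 10.71 with a median of 9.66 in Car9-/- mice and from 8.58 to 10.87 with a median of 9.84 in wild-type mice. Its change was -0.16 ± 0.44 (adjusted p = 0.851), and its SD over the 12 mice was above that of 97.8% of all tested genes.

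Both genes were high in the mice with high levels of markers of stratified squamous epithelium, the lining of the forestomach. Of 24 such markers 23 were tested, only 6 of them detected on all 12 arrays, and 1 rose and 0 fell, where 5.91% of all tested genes rose. Their level was between 0.56 and 2.64 in 7 mice, 4 Car9-/- and 3 wild-type, and between -2.34 and -2.07 in the other 5, of which 2 were Car9-/- and 3 wild-type. Hmox1 had 9.44 to 10.87 in the 7 mice and 8.58 to 9.28 in the 5. Pfkfb4 had 8.87 to 9.53 in the 7 and 8.00 to 8.60 in the 5. So neither gene overlapped between the mice with the higher and the lower squamous level, while both overlapped between genotypes. These were the only 2 of the 25 genes without overlap between the 7 and the 5 mice, where 2.34% of all genes had none and 1.93% had none with the 7 mice higher. Pfkp, for example, had 8.18 to 10.43 in the 7 and 9.38 to 10.37 in the 5. With the squamous level as a covariate, Hmox1 had a log2 fold change of -0.52 ± 0.15 and passed (adjusted p = 0.0436), and Pfkfb4 had -0.14 ± 0.14 and did not (adjusted p = 0.543). Of all genes 12.2% passed with this covariate. Hmox1 passed under only this 1 of 27 other settings, over which its change ran from -0.80 to 0.063 (adjusted p up to 0.99).

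**Figure D4:**
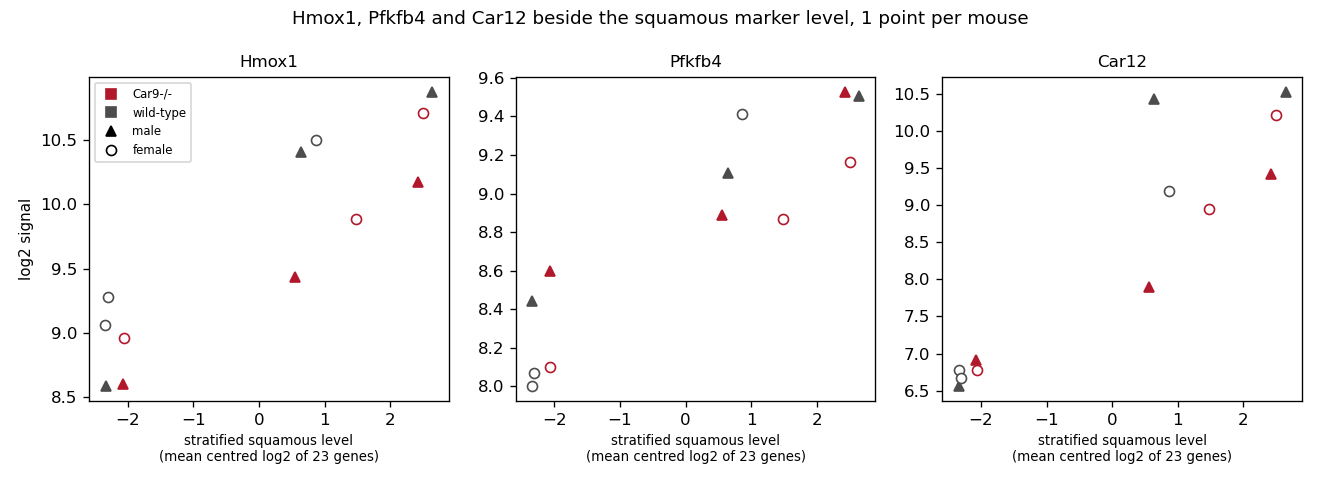
Log2 signal of Hmox1, Pfkfb4 and Car12 against the level of stratified squamous markers (mean centred log2 signal of 23 genes), 1 point per mouse, with Car9-/- in red and wild-type in grey. The 5 mice at a level near -2 are the lowest in every panel, and both genotypes lie on both sides.

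Neither of the secreted signals passed the test. Vegfa, the vessel growth factor that HIF induces, had 9.56, 9.81 and 10.22 in Car9-/- mice and 9.64, 9.96 and 10.19 in wild-type mice, a change of -0.11 ± 0.12 (adjusted p = 0.598). Its interval of -0.37 to 0.16 lay within 1.4-fold. Adm, which encodes the vasodilator adrenomedullin, had 7.08, 7.42 and 7.67 in Car9-/- mice against 7.33, 7.39 and 7.64 in wild-type mice. Its change was -0.0025 ± 0.09, the smallest of the set, with an interval of -0.21 to 0.20.

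Ndrg1, a stress gene induced by hypoxia and by differentiation, spread over 1.21 log2 units between mice. It ran from 10.71 to 11.42 with a median of 11.02 in Car9-/- mice and from 10.42 to 11.62 with a median of 10.98 in wild-type mice, with 0.06 ± 0.21 (adjusted p = 0.881) at the representing probe and 0.05 (adjusted p = 0.88) at the other. The lowest and highest mice were both wild-type, mice 4 and 3. Immediate early genes, which rise within minutes of handling, were at -0.56 and 0.55 in the same 2 mice. That list of 12 had 9 tested genes, 8 detected on all arrays, with 0 rising and 0 falling, and its level was -0.18 to 0.35 in Car9-/- mice and -0.67 to 0.55 in wild-type mice. Its part in the Ndrg1 values was not tested.

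The enzymes that act on collagen and histones all had lower means in Car9-/- mice, and none passed. P4ha2, a catalytic subunit of collagen prolyl hydroxylase, had 9.04, 9.11, 9.02, 8.91, 9.04 and 9.52 in Car9-/- mice, against 9.65, 9.83, 9.27, 9.92, 9.63 and 8.96 in wild-type mice. Its change was -0.44 ± 0.16 (adjusted p = 0.094), and mouse 6 of each genotype ran against the rest, Car9-/- mouse 6 being high and wild-type mouse 6 low. Without wild-type mouse 6 the adjusted p was 0.0244, and without Car9-/- mouse 6 it was 0.0486. P4ha2 passed under only these 2 of 27 other settings, and other single omissions gave adjusted p values up to 0.187. P4ha1, the sister subunit, had a change of -0.24 ± 0.15 (adjusted p = 0.313). Kdm3a, a demethylase of histone H3 induced by HIF, had -0.11 ± 0.08 (adjusted p = 0.383), with -0.02 at a second probe.

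The effect of genotype was also compared between females and males, and the sexes themselves were compared. No gene of the set passed either test with limma. For the difference of the genotype effect 1 of the 25 genes had an unadjusted p under 0.05, against 10.5% of all genes, and only 3 of all 20751 probes, 0.0145%, were called. That gene was P4ha2, which averaged 9.20 ± 0.28 in Car9-/- females and 9.29 ± 0.34 in wild-type females, and 9.02 ± 0.10 in Car9-/- males and 9.80 ± 0.14 in wild-type males (SD, n = 3 each). The change was -0.09 in females and -0.79 in males, and the difference of 0.69 did not pass (unadjusted p = 0.0187, adjusted p = 0.419). Between females and males, 1 of the 25 genes, Hk2, had an unadjusted p under 0.05, against 5.37% of all genes, and 5 probes of all, 0.0241%, were called. There were only 3 mice per genotype and sex behind these tests.

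Other genes of the pathway were taken from lists of the HIF system, further HIF targets and further glycolysis genes. Of 73 genes with a probe 64 were tested. Among these 2 rose, 9 fell and the other 53 stayed above the threshold, where 5.91% of all tested genes rose and 7.06% fell. The median log2 fold change was -0.12, with 21 means higher and 43 lower. Over all 11704 tested genes it was -0.0239, with 5352 means higher and 6352 lower. By list, 0 rose and 0 fell among 9 genes of the HIF system, 2 rose and 5 fell among 34 targets, and 0 rose and 4 fell among 21 glycolysis genes. At an unadjusted p under 0.05 the HIF system had 2 of its 9 genes, both lower, where the share over all genes in either direction was 30.9%. These counts rest on the representing probes. A weaker probe of Cited2, of the HIF system, passed at -0.38 (adjusted p = 0.0382), and its representing probe had -0.60 (adjusted p = 0.0893). A weaker probe of the target Vldlr passed at -0.56 (adjusted p = 0.0084), and its representing probe had -0.33 (adjusted p = 0.102). By the probe with the lowest p, 2 genes of these lists rose and 11 fell, where 14.4% of all genes passed. These lists were put together with earlier results of these arrays known and carry no test of their own.

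Stc2 and Bhlhe40 were the genes that rose. Stc2, which encodes the glycoprotein stanniocalcin 2 and is induced by hypoxia and by stress of the endoplasmic reticulum, had 8.44, 8.71 and 9.30 in Car9-/- mice against 7.89, 7.94 and 8.31 in wild-type mice, with no overlap. The change was 0.79 ± 0.14 (adjusted p = 0.00764) and a second probe gave 0.57 (adjusted p = 0.0189). Bhlhe40, a transcriptional repressor of the clock and of the hypoxia response, had 10.16, 10.28 and 10.49 in Car9-/- mice against 9.57, 9.84 and 10.18 in wild-type mice. Its ranges touched, and its change was 0.44 ± 0.11 (adjusted p = 0.0279). This call was lost under 10 of 27 other settings, among them leaving out any one of Car9-/- mice 1 to 4 or of wild-type mice 1, 5 and 6 (adjusted p up to 0.0599).

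Slc2a4 and Pfkm had the largest limma statistics among the genes that fell. Slc2a4, the insulin-responsive glucose transporter GLUT4, had 7.80, 8.19 and 8.64 in Car9-/- mice and 8.80, 8.93 and 9.18 in wild-type mice, with no overlap and a change of -0.76 ± 0.13 (adjusted p = 0.00563). Pfkm, the muscle-type phosphofructokinase, also did not overlap, with 10.40, 10.60 and 10.82 in Car9-/- mice against 10.91, 11.02 and 11.13 in wild-type mice and a change of -0.40 ± 0.07 (adjusted p = 0.00836). A weaker Pfkm probe, detected on 9 arrays, gave 0.08 (adjusted p = 0.764). Smooth muscle markers had lower means in Car9-/- mice for all 9 tested of 10, 8 of them detected on all arrays, with 0 rising and 0 falling past the threshold. Their level was -0.71 to 0.09 in Car9-/- mice and -0.15 to 0.69 in wild-type mice. Adipose markers, of which 7 of 14 were tested and 6 detected on all arrays, had 1 falling and 0 rising, where 7.06% of all tested genes fell. The adipose level was -0.77 to 0.04 in Car9-/- mice and -0.73 to 1.64 in wild-type mice. The part of muscle and fat in these values was not tested.

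Tgfb3, Selenbp1 and Ppp1r3c fell as well. Tgfb3, a growth factor that shapes matrix, had 7.35, 7.73 and 7.89 in Car9-/- mice and 7.93, 8.14 and 8.23 in wild-type mice, with no overlap (-0.45 ± 0.09, adjusted p = 0.0116). Selenbp1, which oxidizes methanethiol, had 10.22, 10.67 and 10.92 in Car9-/- mice and 10.87, 11.22 and 11.43 in wild-type mice (-0.56 ± 0.12, adjusted p = 0.0131). Ppp1r3c, a targeting subunit that brings protein phosphatase to glycogen, had 9.67, 9.95 and 10.42 in Car9-/- mice and 10.12, 10.78 and 10.97 in wild-type mice (-0.70 ± 0.16, adjusted p = 0.0174). The ranges of Selenbp1 and Ppp1r3c overlapped.

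The other 4 that fell, Ldhb, Pdk2, Flt1 and Slc2a3, are named after their values were seen. Ldhb, the heart-type lactate dehydrogenase subunit that favours turning lactate back into pyruvate, had 11.19, 11.70 and 12.47 in Car9-/- mice against 11.99, 12.57 and 13.06 in wild-type mice (-0.85 ± 0.20, adjusted p = 0.0216). Pdk2, a broadly expressed pyruvate dehydrogenase kinase, had a change of -0.54 ± 0.14 (adjusted p = 0.0269), and Slc2a3, the high-affinity glucose transporter GLUT3, one of -0.40 ± 0.12 (adjusted p = 0.0455). Flt1, a VEGF receptor of endothelium, had -0.59 ± 0.17 (adjusted p = 0.0406). The calls of Pdk2, Slc2a3 and Flt1 were less stable than that of Ldhb, which 3 of 27 other settings ended. That of Slc2a3 was lost under 19, where leaving out any one mouse other than Car9-/- mouse 6 or wild-type mouse 3 ended it (adjusted p up to 0.102). That of Flt1 was lost under 16, with any one of Car9-/- mice 1 to 5 or wild-type mice 1, 2, 4 and 5 left out (up to 0.0925), and that of Pdk2 under 10, including the omission of each of Car9-/- mice 2 to 4 and wild-type mice 1, 4 and 5 (up to 0.0566). Beside Flt1, blood vessel markers had 5 of 10 tested genes falling and 0 rising, 9 of the 10 detected on all arrays, where 7.06% of all tested genes fell. The vessel level was -0.29 to -0.03 in Car9-/- mice and 0.02 to 0.36 in wild-type mice, which did not overlap. The part of vessels in the Flt1 result was not tested.

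Set side by side, the forms of one enzyme had changes of both signs in some families. The lactate dehydrogenase subunits had 0.30 for Ldha and -0.85 for Ldhb, and the per-mouse difference of their centred log2 values was -0.26, 0.63 and 1.38 (lowest, median and highest) in Car9-/- mice and -1.29, -0.58 and 0.35 in wild-type mice. The kinases had 0.26 for Pdk1 and -0.54 for Pdk2, Pdk3 had -0.04 ± 0.11 (adjusted p = 0.832), and Pdk4, the form that answers to fasting, had -0.67 ± 0.42 with wide spread. The glucose transporters had 0.19 for Slc2a1, -0.40 for Slc2a3 and -0.76 for Slc2a4. In each of these 3 families the form in the hypoxia and glycolysis set had the highest change. Pfkfb3 of the set did not have the highest change of its own family, at -0.58 beside 0.10 for Pfkfb4. Pfkfb2, outside the set, averaged 9.30 in Car9-/- females and 9.05 in Car9-/- males. In wild-type mice it averaged 9.23 in females and 9.35 in males. The families were picked after the values were seen, the differences between forms were not tested, and the Ldha and Ldhb differences of the genotypes overlapped.

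**Figure D5:**
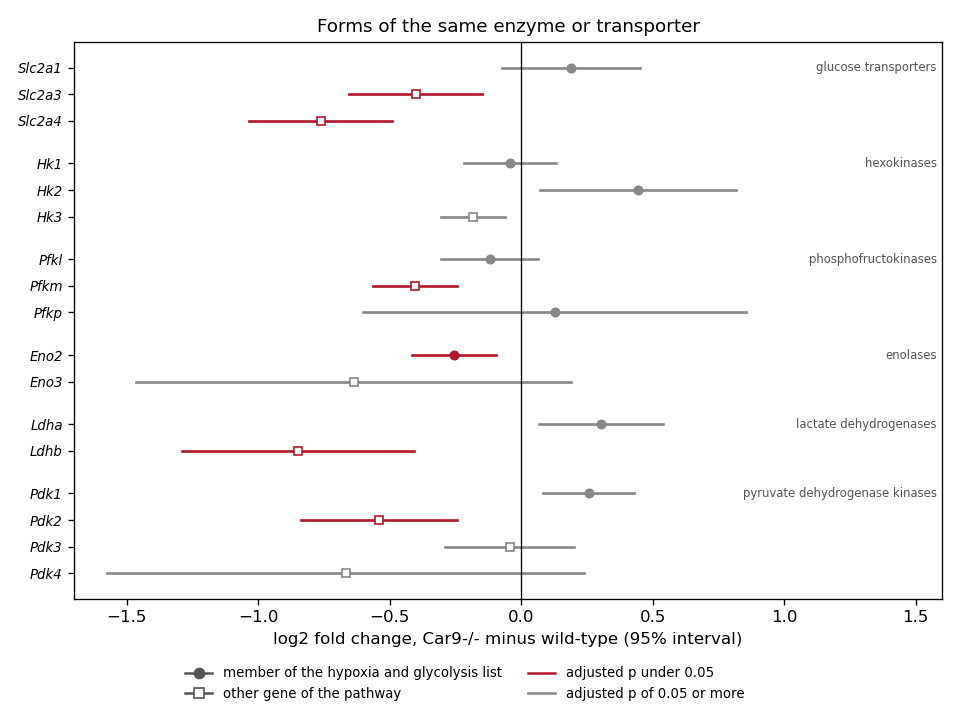
Log2 fold change with 95% interval, Car9-/- minus wild-type, for forms of the same enzyme or transporter. Slc2a3, Slc2a4, Pfkm, Ldhb and Pdk2 (open squares, outside the hypoxia and glycolysis set) and Eno2 passed the adjusted threshold (red), while Ldha, Pdk1 and Hk2 lie right of 0 without passing it.

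Car12 and Slc16a3, which serve pH like Car9, were followed as well. Car12, another membrane carbonic anhydrase and HIF target, had 6.78, 8.42 and 10.22 in Car9-/- mice and 6.56, 7.98 and 10.53 in wild-type mice, with a change of 0.01 ± 0.86 (adjusted p = 0.998). It was high where squamous markers were, at 7.89 to 10.53 in the 7 mice with the higher level and 6.56 to 6.92 in the other 5. Slc16a3, the lactate exporter MCT4, had 7.05, 7.07 and 7.14 in Car9-/- mice and 7.08, 7.16 and 7.41 in wild-type mice, a change of -0.13 ± 0.06 (adjusted p = 0.187). A second Slc16a3 probe gave -0.14 with groups that did not overlap and an adjusted p of 0.102.

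Wild-type mice 4 and 6 stood apart in pancreatic RNA, with exocrine pancreas levels of 2.93 and 2.62, where the Car9-/- mice had -1.09 to -0.56 and the other wild-type mice -0.41 to -0.07. Of 24 pancreas markers 19 were tested, 14 detected on all arrays, and 3 fell and 0 rose, where 7.06% of all tested genes fell. Without these 2 mice no gene of the hypoxia and glycolysis set passed in either direction (Eno2 -0.24, adjusted p = 0.149), 5.78% of all genes did, and of the other pathway genes 1 rose (Stc2) and 2 fell (Slc2a4 and Pfkm). The changes of Pgk1 and Pdk1 were then 0.32 and 0.30, and that of Ldha was 0.20. With the pancreas level as a covariate, 0.641% of all genes passed and no gene of the set or of the other lists did. Every Car9-/- mouse had a lower pancreas level than every wild-type mouse, so this fit cannot fully separate the level from genotype. Several changes were then about as large as without it, at 0.85 for Stc2, 0.45 for Bhlhe40, -0.70 for Slc2a4, -0.37 for Pfkm, -0.62 for Flt1 and -0.58 for Pdk2, with adjusted p values of 0.056 to 0.165, and those of Ldhb and Slc2a3 were -0.63 and -0.29. The standard error of Slc2a4 was 0.16 with the covariate and 0.13 without it.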

How the data were processed

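Total RNA of stomach body specimens from 12 mice, 6 of each genotype, was hybridized to 12 arrays. The authors extracted signal intensities in BeadStudio and deposited them on a linear scale without normalization or background subtraction, 46643 probes per array, each with a detection p-value. The authors also deposited quantile-normalized log2 values, made in Chipster and used here as an alternative.

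After log2 transformation, signals were quantile-normalized here, which gave values within 0.0224 of the authors' log2 values. Probes detected (p under 0.01) on 3 arrays or more were fitted with limma 3.58.1 in R 4.3.3 (lmFit and eBayes), and p-values were adjusted over all 20751 probes. The platform table gives 1 symbol for 32794 probes, several for 55 and none for 13794, and only probes with 1 symbol were named. Values are the result of hybridization, so the levels of different probes were not set against each other. The script was tested on simulated data. The number of mice limits the precision. Slide positions were not given in the sources used here. Probe positions and sequences were not used here. Promoter sequences are from RefSeq (GRCm38.p6). Figures were drawn with matplotlib in python.

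Full values are given for genes of the set that passed, for Hif1a, Epas1, Vhl, Egln1, Vegfa, Slc2a1, Ldha, Pgk1, Gapdh and Hmox1, for Car9, Car12 and Slc16a3, and for up to 5 genes in each direction from the other lists. Each other gene of the set is given within its role, and those given in full were chosen after their values were seen. The members and lists were chosen with earlier results of these data known. List levels are, for each mouse, means of the list's tested genes after centring each gene over all 12 mice. Alternatives included normalization by neqc (offset 16), the authors' values, median scaling, other probe filters, sex and age as covariates, a replicate block, array weights, an intensity trend, the levels of 3 marker lists as covariates, the probe with the lowest p, a fold threshold, and each mouse left out.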

Additional observations from a re-analysis of the deposited data

Results flagged for a closer look

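In 10 of 108 groups of 6 mice, the highest or lowest mouse lay far from the rest by Dixon's test, which chance alone gives in about 1 of 20 groups. Of these, 4 concerned Car9-/- mouse 5. They were Pfkp probe 6760040 with 8.18, next to 10.21 in the nearest Car9-/- mouse, Pfkp probe 70138 with 6.46, next to 8.29, Tpi1 probe 1500215 with 6.48, next to 7.62, and Hk1 probe 106590435 with 6.49, next to 6.91. Car9-/- mouse 2 was high for Hk1 probe 100580433 with 12.26, next to 12.03, and Car9-/- mouse 6 was high for P4ha2 with 9.52, next to 9.11. Car9-/- mouse 4 was high for Slc16a3 with 7.14, a gap that is small on the log2 scale. Among wild-type mice, mouse 6 was low for Hk2 with 9.91, next to 10.57, mouse 4 was high for Stc2 with 8.31, next to 8.00, and mouse 3 was low for Slc2a3 with 7.27, next to 7.82. The value of Stc2 in wild-type mouse 4 was still below that of every Car9-/- mouse. Without wild-type mouse 6 Hk2 had a smaller change, and without Car9-/- mouse 5 Pfkp passed, as given above.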

How the results depend on the processing

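Few calls of the set were stable. The gene lower in Car9-/- mice under the main setting, Eno2, was not called with neqc, all probes tested, sex (with or without age) as a covariate, the intensity trend, the replicate block, the exocrine pancreas or immediate early gene level as a covariate, or without wild-type mice 4 and 6 (0 lower in each), and 2 genes were lower with array weights and with the squamous level as a covariate. Genes of the set called higher were 1 with sex, 2 with sex and age and 2 with array weights as against 0, and 5 higher and 0 lower under median scaling. Each mouse left out in turn gave 0 to 2 higher and 0 to 2 lower. The share of all genes called moved as well, from 13% under the main setting to 22.4% under median scaling and 21.2% with array weights. It was 12.5% with sex, 15.6% with sex and age, 12.2% with the squamous level and 0.641% with the pancreas level. Without wild-type mice 4 and 6 it was 5.78%, at 1.4-fold 8.68%, and with each mouse left out 7.23% to 18.1%. For the other pathway genes the calls were 7 higher and 3 lower under median scaling, 5 and 18 with array weights, 0 and 0 with the pancreas level, 1 and 2 without wild-type mice 4 and 6, 1 higher at 1.4-fold in place of the adjusted p, and with each mouse left out 1 to 4 higher and 6 to 15 lower.

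Replicate numbers gave no pairing of mice. Deviations of same-numbered mice correlated at -0.37 to 0.501 and 1 of 6 pairs was over 0.1. With the replicate number as a block 0 genes of the set passed, 1 of the other genes was higher and 3 lower, and 2.79% of all genes passed.

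Some genes that did not pass changed sign. Under median scaling Egln1 was at 0.13, Hk1 0.21, Pfkl 0.13, Aldoa 0.16, Vegfa 0.14, Adm 0.12, Kdm3a 0.13 and Hmox1 0.053. With the pancreas level Egln3 was at -0.059, Slc2a1 -0.032, Pfkp -0.054, Pfkfb4 -0.32, Adm 0.035, Ndrg1 -0.21 and Car12 -1.32. With the squamous level Pfkfb4 was at -0.14, Adm 0.026 and Car12 -0.70, and with the immediate early gene level Ndrg1 was at -0.086 and Car12 -0.038. Without wild-type mice 4 and 6 Pfkfb4 was at -0.15, Adm 0.029, Ndrg1 -0.11 and Car12 -0.87. Adm was at 0.011 with array weights, and Hk1 at 0.085 by its probe with the lowest p. With each mouse left out in turn, Aldoa ran from -0.093 to 0.023, Pfkfb4 from -0.051 to 0.25, Adm from -0.052 to 0.066, Ndrg1 from -0.051 to 0.19, Hmox1 from -0.40 to 0.063 and Car12 from -0.37 to 0.44. The cause was not tested. The slide as a block was not run, since slides were not given. Signal near background leaves Hif1a, Epas1, Vhl and Bnip3 without a level.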
